A study of Mus musculus with 9 samples.

Results

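Small nucleolar RNA host genes are transcribed genes whose introns hold snoRNAs, and some of them also encode a protein. The 7 described here, all annotated as noncoding, are Snhg1, Snhg3, Snhg5, Snhg6, Snhg8, Snhg12 and Gas5. They were found by symbol among the 24421 gene rows of the count tables. The genes were chosen by name with measured values of these data in view, the fold changes and calls of the treatment comparisons, and the call of Snhg1 against Fc was among them. Their values in the treatment comparisons are therefore descriptions, and nothing is supported with them.

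The study asked how Tie2 activation compares with VEGF blockade in choroidal neovascularization, the growth of choroidal vessels through a ruptured Bruch membrane. Male mice aged 8 weeks received 4 laser burns per eye, and each eye was injected into the vitreous with 5 µg of reagent at 5 mg/ml. Laser capture took the lesion with the retinal pigment epithelium and choroid around it, and QuantSeq counted RNA 3′ ends. The groups were ABTAA, an antibody that binds angiopoietin-2 and activates Tie2, VEGF Trap, a decoy that takes up VEGF before it reaches its receptors, and Fc, the control protein, with 3 libraries each. All 9 libraries came from burned and injected eyes, so no group shows the tissue before injury. No label gives a strain, an interval between burn, injection and collection, or the animal behind a library, so the p-values cover only sample-to-sample spread, which may be technical. In the Fc tables the heading of the count column names a knockout control instead of Fc, and the sample titles were followed.

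A snoRNA host gene is spliced, its introns are trimmed to release snoRNAs, and the joined exons are exported and in many cases degraded by nonsense-mediated decay during translation. Box C/D snoRNAs guide ribose methylation and box H/ACA snoRNAs guide pseudouridylation, mostly of ribosomal RNA. Many host genes start with a pyrimidine run, the 5′ terminal oligopyrimidine (TOP) motif, which ties translation of an RNA to growth signals, and Gas5 was found in mouse fibroblasts as a transcript that accumulates on growth arrest.

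Library totals ran from 6335805 to 14439835 counts, with a median of 10669772, and the 7 host genes together had 1935 to 4200 counts per library. All 8 retinal pigment epithelium marker genes had counts, and their summed level was 1502 to 2267 counts per 1000000 (CPM) in ABTAA, 1587 to 2005 CPM in VEGF Trap and 1211 to 1968 CPM in Fc libraries. Some marker lists for other cells moved with treatment, while 0 photoreceptor, lens, erythrocyte or proliferating cell markers were called against Fc. VEGF Trap library 1 stood out in 2 of these lists. Its lens markers summed to 44.5 CPM, against 2.23 and 7.35 CPM in VEGF Trap libraries 2 and 3. Its photoreceptor markers summed to 169 CPM, against 31.9 and 40.6 CPM in libraries 2 and 3. The 10 skeletal muscle markers summed to 221 to 459 CPM in ABTAA, 210 to 368 CPM in VEGF Trap and 103 to 152 CPM in Fc libraries, and 8 of 10 were called higher with ABTAA and 3 of 10 with VEGF Trap. The 8 endothelial markers summed to 1126 to 1249 CPM in ABTAA, 912 to 969 CPM in VEGF Trap and 720 to 903 CPM in Fc libraries. Of these 4 of 8 were called higher with ABTAA and 0 of 8 with VEGF Trap. No marker of any list was at 0 in all 9 libraries. The counted end of a host transcript does not tell its spliced RNA from RNA that keeps an intron. In bulk tissue fewer cells of a type and less RNA per cell cannot be told apart.

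In the GENCODE annotation of GRCm38, the build called mm10, the 7 genes hold 27 annotated snoRNA loci of 60 to 205 bases, and all 27 lie within an intron of the host transcript with the most exons. Snhg1 holds 8, Snhg3 holds 2, Snhg5 holds 2, Snhg6 holds 1, Snhg8 holds 1, Snhg12 holds 4 and Gas5 holds 9. A search of each locus on its own strand for the C box TGATGA in its first 15 bases together with the D box CTGA in its last 15 found both in 16 loci. ACA in the last 8 bases was found in 5 loci, and 6 had neither pattern. Among 1507 annotated mouse snoRNA transcripts 20.2% had both C and D box letters and 46.0% had ACA. A match is a description of letters only.

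The 8 loci of Snhg1 are printed because Snhg1 is the host with the largest difference between groups. They are given 5′ to 3′ from the snoRNA transcripts of GENCODE, with C and D box letters in capitals where both were found, in the order of transcription.

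Gm25855 (chr19:8723993-8724064, plus strand): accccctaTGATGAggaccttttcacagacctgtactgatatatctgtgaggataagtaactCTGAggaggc
Gm25894 (chr19:8724251-8724325, plus strand): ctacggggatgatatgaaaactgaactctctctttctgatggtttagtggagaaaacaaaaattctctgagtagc
Gm24452 (chr19:8724531-8724602, plus strand): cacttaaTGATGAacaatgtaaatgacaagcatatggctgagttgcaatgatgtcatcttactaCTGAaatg
Gm24453 (chr19:8724868-8724943, plus strand): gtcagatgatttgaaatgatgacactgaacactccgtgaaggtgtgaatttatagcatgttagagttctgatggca
Gm22744 (chr19:8725092-8725156, plus strand): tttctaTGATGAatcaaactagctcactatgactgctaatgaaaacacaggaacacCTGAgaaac
Gm22680 (chr19:8725341-8725409, plus strand): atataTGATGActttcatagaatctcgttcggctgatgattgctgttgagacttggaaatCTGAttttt
Gm23246 (chr19:8725594-8725660, plus strand): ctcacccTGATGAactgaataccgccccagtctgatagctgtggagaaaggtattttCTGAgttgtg
Snord22 (chr19:8725866-8725991, plus strand): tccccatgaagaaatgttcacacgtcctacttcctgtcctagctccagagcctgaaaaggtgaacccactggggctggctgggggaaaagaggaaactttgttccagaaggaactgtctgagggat

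By this search 5 of the 8 have both boxes, while Snord22, the longest at 126 bases, and 2 others have neither pattern. The loci of the other hosts with few snoRNAs show the second class and a near-identical pair. Snora73a and Snora73b of Snhg3 differ at 7 of 205 positions, and Snord50a and Snord50b of Snhg5 differ at 1 of 72, C50A, counted from 1 at the 5′ end of Snord50a. The capitals mark C and D boxes in the Snord loci and ACA in the Snora loci.

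Snora73a (chr4:132352775-132352979, minus strand): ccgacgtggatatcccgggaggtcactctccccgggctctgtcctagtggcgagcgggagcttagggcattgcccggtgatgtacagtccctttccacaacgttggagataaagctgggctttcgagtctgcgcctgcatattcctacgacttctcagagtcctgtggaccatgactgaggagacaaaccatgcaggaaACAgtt
Snora73b (chr4:132352322-132352526, minus strand): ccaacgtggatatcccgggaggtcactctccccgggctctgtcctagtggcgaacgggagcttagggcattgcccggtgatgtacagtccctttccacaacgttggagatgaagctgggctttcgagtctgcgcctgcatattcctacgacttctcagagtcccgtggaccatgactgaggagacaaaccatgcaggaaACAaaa
Snord50a (chr9:88521529-88521600, minus strand): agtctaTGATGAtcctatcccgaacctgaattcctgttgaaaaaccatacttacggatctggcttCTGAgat
Snord50b (chr9:88521797-88521868, minus strand): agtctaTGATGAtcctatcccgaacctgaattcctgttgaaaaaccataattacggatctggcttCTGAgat
Snord87 (chr1:9942463-9942549, minus strand): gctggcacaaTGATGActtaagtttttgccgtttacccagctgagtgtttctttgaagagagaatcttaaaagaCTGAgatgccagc
Snora24 (chr3:123507937-123508066, minus strand): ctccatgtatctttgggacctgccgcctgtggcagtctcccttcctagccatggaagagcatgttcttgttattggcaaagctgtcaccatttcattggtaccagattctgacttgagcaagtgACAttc
Snora61 (chr4:132310240-132310369, plus strand): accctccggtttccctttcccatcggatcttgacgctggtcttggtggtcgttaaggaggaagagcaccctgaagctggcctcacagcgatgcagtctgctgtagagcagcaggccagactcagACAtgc
Snord80 (chr1:161037601-161037681, plus strand): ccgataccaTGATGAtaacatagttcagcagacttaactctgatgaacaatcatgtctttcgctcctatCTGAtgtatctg

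Snord87 belongs to Snhg6, Snora24 to Snhg8, Snora61 to Snhg12 and Snord80 to Gas5. The map of the 7 genes shows where each locus sits relative to the exons.

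**Figure D1:**
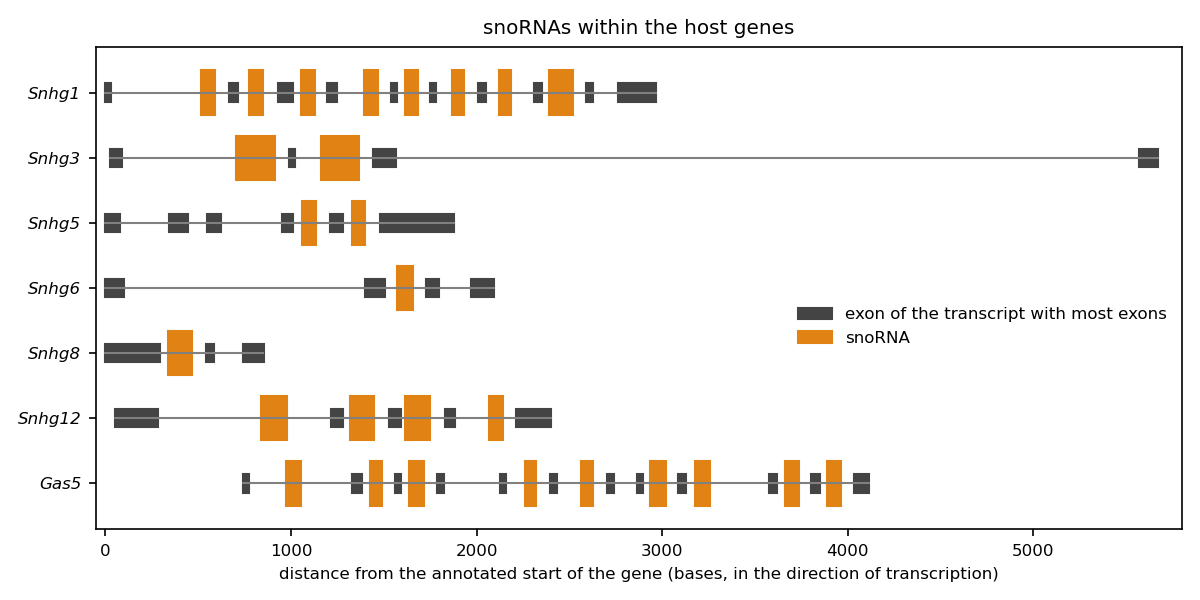
Exons (dark blocks) of the transcript with most exons and snoRNA loci (orange blocks) of the 7 host genes, drawn 5′ to 3′ by distance in bases from the annotated start of the gene. Snhg1 carries 8 loci and Gas5 9, each between exons, while Snhg6 and Snhg8 carry 1 each.

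The RefSeq promoter table of GRCm38.p6 held 6 of the 7 genes, with 2 start sites for Gas5. A run of C followed by at least 4 C or T bases, beginning within 5 bases of the annotated start on the strand of the gene, was found in 4 of the 7 windows. It was present in 18.3% of all 32851 promoters and in 44.4% of the 63 promoters of Rpl and Rps genes, the cytosolic ribosomal proteins. The windows with a run belong to Snhg3, Snhg8, Snhg12 and the downstream start of Gas5, and the run is in capitals. Snhg1 and Snhg5 had no such run at the annotated start. The 50 bases before and 50 after the start are printed for Snhg1, Snhg8, Snhg12 and Gas5, to set Snhg1 beside windows that have a run. Snhg1 has the shorter stretch cctc across its start, so its lack of a run rests on the length set for the search.

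Snhg1 (chr19:8723437-8723536, plus strand): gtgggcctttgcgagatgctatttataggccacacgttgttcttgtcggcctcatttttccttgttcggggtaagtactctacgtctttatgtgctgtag
Snhg8 (chr3:123508287-123508386, minus strand): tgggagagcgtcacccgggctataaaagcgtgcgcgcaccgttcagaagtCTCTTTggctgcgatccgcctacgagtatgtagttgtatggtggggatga
Snhg12 (chr4:132308628-132308727, plus strand): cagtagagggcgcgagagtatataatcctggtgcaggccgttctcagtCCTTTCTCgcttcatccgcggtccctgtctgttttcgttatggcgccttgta
Gas5 (chr1:161035116-161035215, plus strand): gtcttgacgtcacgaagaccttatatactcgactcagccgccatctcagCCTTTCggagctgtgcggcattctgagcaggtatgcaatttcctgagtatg

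Relative to Fc, 1 of the 7 host genes passed the test across all genes in each treatment, and it was Snhg1 both times, lower in treated eyes. In the ABTAA comparison 1.4% of 14054 tested genes were called at an adjusted p under 0.05 (edgeR's quasi-likelihood test with Benjamini-Hochberg adjustment), with 0.555% called lower and 0.847% called higher. In the VEGF Trap comparison 1.02% were called and 0.512% were called lower. All 7 host genes passed the filter on low counts. The rule that chose them used these contrasts, so nothing is read from the count. Both comparisons use the same 3 Fc libraries, and the value of each is given side by side.

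Snhg1, the U22 host gene, lies at chr19:8723475-8726443 on the plus strand and has 10 exons. It had 8.88, 10.1 and 11.4 CPM in ABTAA libraries 1 to 3, 7.38, 9.75 and 11.1 CPM in VEGF Trap libraries and 20.6, 17.3 and 17.8 CPM in Fc libraries. All 6 treated libraries lay below all 3 Fc libraries, and the ABTAA and VEGF Trap ranges overlapped. The level averaged 10.1 ± 1.27 CPM in ABTAA, 9.41 ± 1.88 CPM in VEGF Trap and 18.6 ± 1.80 CPM in Fc libraries (SD, n = 3 each). The log2 fold change was -0.88 ± 0.20 (SE) for ABTAA against Fc, with a 95% interval from -1.30 to -0.46. For VEGF Trap against Fc it was -0.99 ± 0.20, with an interval from -1.41 to -0.57. These correspond to 0.544 and 0.503 of the Fc level. In the ABTAA comparison 2.11% of tested genes had a lower fold change, and in the VEGF Trap comparison 1.63%.

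The counts behind the Snhg1 values were 86, 102 and 73 in ABTAA, 89, 140 and 80 in VEGF Trap and 221, 204 and 233 in Fc libraries. Counts of this size give a counting error of 10.7% of the ABTAA mean, 9.85% of the VEGF Trap mean and 6.75% of the Fc mean, and the spread between libraries was 12.5% of the mean in ABTAA, 20% in VEGF Trap and 9.70% in Fc. The calls depended on all 3 libraries of a group. Without any 1 Fc or ABTAA library, or without VEGF Trap library 2, the ABTAA difference no longer passed adjustment, at -0.97 to -0.79. Without any 1 Fc or VEGF Trap library the VEGF Trap difference did not pass, at -1.11 to -0.83. Over all genes, 13 to 47 were called for ABTAA and 7 to 32 for VEGF Trap when 1 Fc library was left out. A correction for GC content gave -0.75 and -0.88 and ended both calls. GC content was that of the longest annotated transcript, which for Snhg1 has 2728 bases in a gene span of 2969. At 40.5% it is higher in Snhg1 than in only 12.3% of genes, and the GC content of the counted 3′ end was not used.

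The summed levels of skeletal muscle and of endothelial markers separated the same groups as Snhg1, for endothelial markers only narrowly in VEGF Trap. With VEGF Trap 0 of 8 endothelial markers were called, and their median log2 fold change was 0.07. In no treated library was the summed level of muscle markers, 210 to 459 CPM, as low as in the Fc libraries. The same held for endothelial markers, at 912 to 1249 CPM in treated and 720 to 903 CPM in Fc libraries. Macrophage markers summed to 1273 to 1524 CPM in ABTAA, 1566 to 1853 CPM in VEGF Trap and 1628 to 1763 CPM in Fc libraries, with 2 of 8 called lower in ABTAA. Neutrophil markers summed to 44.0 to 55.3 CPM in ABTAA, 46.5 to 97.0 CPM in VEGF Trap and 81.9 to 506 CPM in Fc libraries. The highest sum was that of Fc library 1, against 81.9 and 126 CPM in Fc libraries 2 and 3. Of 3 neutrophil markers tested, 1 was called lower with ABTAA and 0 with VEGF Trap. Markers of proliferating cells summed to 396 to 492 CPM in ABTAA, 301 to 453 CPM in VEGF Trap and 474 to 478 CPM in Fc libraries. The part of any of these in the Snhg1 difference was not tested.

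**Figure D2:**
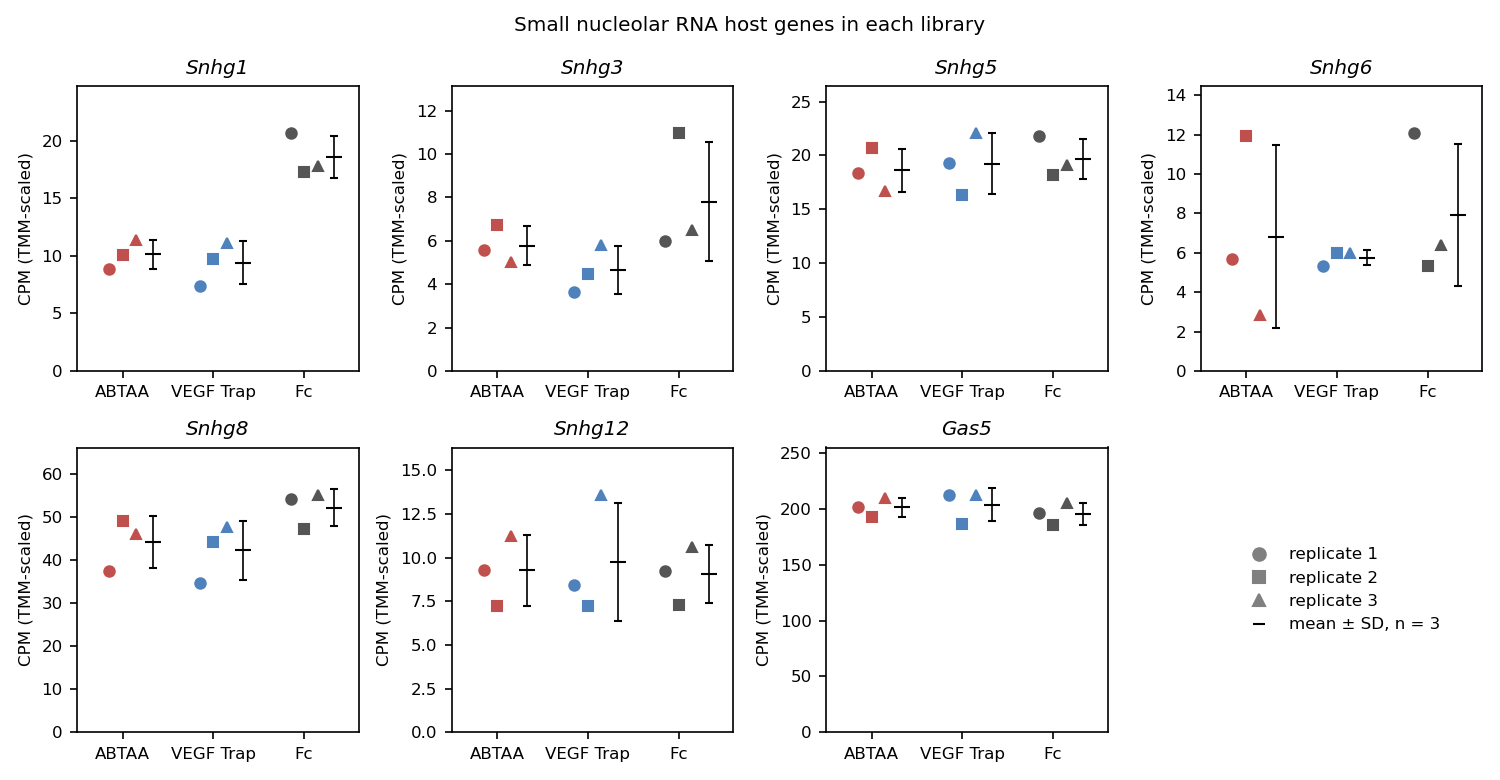
Level of each host gene in CPM by library, in ABTAA, VEGF Trap and Fc groups, 1 panel per gene with its own axis from 0; points are libraries and bars beside them mark the mean with SD (n = 3). Snhg1 is the panel in which all 6 treated libraries, at 7.38 to 11.4 CPM, lie below all 3 Fc libraries, at 17.3 to 20.6 CPM.

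Ratios within a library do not depend on its scaling. Per 100 counts of Gas5, Snhg1 had 4.40, 5.25 and 5.45 counts in ABTAA, 3.48, 5.24 and 5.23 in VEGF Trap and 10.5, 9.33 and 8.67 in Fc libraries. The Fc ratios stood above all 6 treated ones, and since the same Snhg1 counts chose the gene, this restates its difference and supports nothing. The same was seen against the neighbouring gene Slc3a2, which encodes the heavy chain of an amino acid transporter and starts 106 bases from Snhg1 on the opposite strand. Snhg1 had 5.80, 5.57 and 6.47 counts per 100 Slc3a2 counts in ABTAA, 5.65, 5.51 and 6.86 in VEGF Trap and 13.8, 11.7 and 13.5 in Fc libraries. Slc3a2 itself had a log2 fold change of 0.25 ± 0.13 for ABTAA against Fc (adjusted p = 0.343, edgeR) and 0.12 ± 0.13 for VEGF Trap against Fc (adjusted p = 0.693).

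Snord22, the snoRNA near the 3′ end of Snhg1, has a row of its own. It had 48, 30 and 16 counts in ABTAA, 36, 62 and 15 in VEGF Trap and 22, 42 and 51 in Fc libraries. The groups overlapped, and the log2 fold changes were 0.14 ± 0.40 for ABTAA and 0.00 ± 0.37 for VEGF Trap against Fc. The intervals, -0.71 to 0.996 and -0.78 to 0.78, are wide. QuantSeq primes on poly(A), which mature snoRNAs lack, and how reads that fall in both Snord22 and Snhg1 were assigned is not given in the sources used here.

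Snhg3, host of the H/ACA pair Snora73a and Snora73b (chr4:132348014-132353686, minus strand), was lower in VEGF Trap than in Fc libraries without overlap. It had 5.58, 6.74 and 5.01 CPM in ABTAA, 3.65, 4.46 and 5.82 CPM in VEGF Trap and 5.98, 10.9 and 6.49 CPM in Fc libraries. Fc library 2 stood far above the rest, and the closest VEGF Trap and Fc libraries were separated by little. Such separation with the treated group lower was seen for 2 of 7 host genes, Snhg1 and Snhg3, and for 10.5% of all genes in that comparison, and for 1 of 7 and 11.3% in the ABTAA comparison. For Snhg3 the log2 fold change was -0.77 ± 0.30 (-1.39 to -0.14) for VEGF Trap and -0.43 ± 0.29 (-1.05 to 0.20) for ABTAA, and neither passed adjustment. Without Fc library 2 the values were -0.44 for VEGF Trap and -0.11 for ABTAA.

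Snhg3 shares 135 exon bases with Rcc1 on the same strand, the exchange factor for Ran, and is crossed by Gm17300 on the other, so the split of reads between them is uncertain. Rcc1 had 47.1, 56.1 and 49.1 CPM in ABTAA, 37.5, 40.3 and 52.7 CPM in VEGF Trap and 61.5, 57.4 and 53.3 CPM in Fc libraries. All treated libraries except ABTAA library 2 lay below all Fc libraries. Its log2 fold changes of -0.17 ± 0.15 (adjusted p = 0.596, edgeR) for ABTAA and -0.41 ± 0.15 (adjusted p = 0.179) for VEGF Trap were not called, and every Rcc1 count was a multiple of 2.

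Snhg8, host of Snora24 (chr3:123507552-123508404, minus strand), had 37.5, 49.1 and 46.0 CPM in ABTAA, 34.7, 44.2 and 47.7 CPM in VEGF Trap and 54.1, 47.2 and 55.1 CPM in Fc libraries. ABTAA library 2 and VEGF Trap library 3 reached above Fc library 2, so the groups overlapped. The log2 fold change was -0.24 ± 0.15 (-0.56 to 0.08) for ABTAA and -0.31 ± 0.15 (-0.63 to 0.01) for VEGF Trap, and neither passed adjustment.

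Snhg6, host of Snord87 (chr1:9941959-9944118, minus strand), was the least even host gene within the ABTAA and Fc groups, and the most even within VEGF Trap. It had 5.68, 11.9 and 2.82 CPM in ABTAA, 5.31, 5.99 and 5.96 CPM in VEGF Trap and 12.1, 5.35 and 6.41 CPM in Fc libraries. A high library stood out in ABTAA and another in Fc, and all groups overlapped. The spread was 68.3% of the mean in ABTAA, 6.74% in VEGF Trap and 45.4% in Fc libraries, where counting alone gives 12.5%, 12.5% and 10.4%. The log2 fold changes, -0.19 ± 0.40 for ABTAA and -0.46 ± 0.40 for VEGF Trap, had intervals from -1.04 to 0.67 and from -1.32 to 0.40. Without Fc library 1 they were 0.24 and -0.035, and without ABTAA library 2 the ABTAA value was -0.86, so single libraries set them. Snhg6 shares 127 exon bases with Mcmdc2 on the opposite strand, which had at most 10 counts in any library.

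Snord87, within Snhg6, had 3.31, 2.28 and 2.19 CPM in ABTAA, 3.32, 2.51 and 3.33 CPM in VEGF Trap and 1.31, 1.53 and 2.06 CPM in Fc libraries. All treated libraries lay above all Fc libraries, opposite in sign to the host. The log2 fold changes of 0.66 ± 0.41 (adjusted p = 0.445, edgeR) and 0.88 ± 0.41 (adjusted p = 0.311) were not called, on 14 to 40 counts per library. Groups without overlap and with treated libraries higher were seen for 11.7% of all genes in the ABTAA and 10.4% in the VEGF Trap comparison. Of the snoRNA loci 8 have a row of their own. Snora61 of Snhg12, at 4 to 24 counts, had log2 fold changes of -0.08 (-1.52 to 1.37) for ABTAA and 0.61 (-0.75 to 1.97) for VEGF Trap. Snora24, Snora16a, Snora44, Snord99 and Snord47 had at most 8 counts in any library and were not tested.

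Snhg5, Snhg12 and Gas5 had fold changes near 0. Snhg5, host of the Snord50 pair (chr9:88521050-88522929, minus strand), had 18.4, 20.7 and 16.7 CPM in ABTAA, 19.3, 16.4 and 22.0 CPM in VEGF Trap and 21.8, 18.2 and 19.1 CPM in Fc libraries. The groups overlapped, with log2 fold changes of -0.07 (-0.43 to 0.28) for ABTAA and -0.04 (-0.39 to 0.31) for VEGF Trap. Snhg12, host of 3 Snora loci and Snord99 (chr4:132308623-132311024, plus strand), had 9.30, 7.24 and 11.3 CPM in ABTAA, 8.46, 7.25 and 13.6 CPM in VEGF Trap and 9.25, 7.30 and 10.6 CPM in Fc libraries. The groups overlapped here too, and library 2 was lowest and library 3 highest in every group. Its log2 fold changes were 0.02 (-0.55 to 0.59) for ABTAA and 0.08 (-0.48 to 0.65) for VEGF Trap, so its intervals leave room for changes in either direction.

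Gas5, the growth-arrest host gene at chr1:161034422-161038539 on the plus strand, had 202, 193 and 209 CPM in ABTAA, 212, 186 and 212 CPM in VEGF Trap and 196, 186 and 205 CPM in Fc libraries. The groups overlapped throughout. It had the smallest standard error of the 7, and a spread of 4.2% of the mean in ABTAA, 7.36% in VEGF Trap and 5.05% in Fc libraries. The log2 fold changes were 0.04 ± 0.10 (-0.18 to 0.26) for ABTAA and 0.06 ± 0.10 (-0.16 to 0.28) for VEGF Trap. These intervals leave out a change of the size measured for Snhg1.

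**Figure D3:**
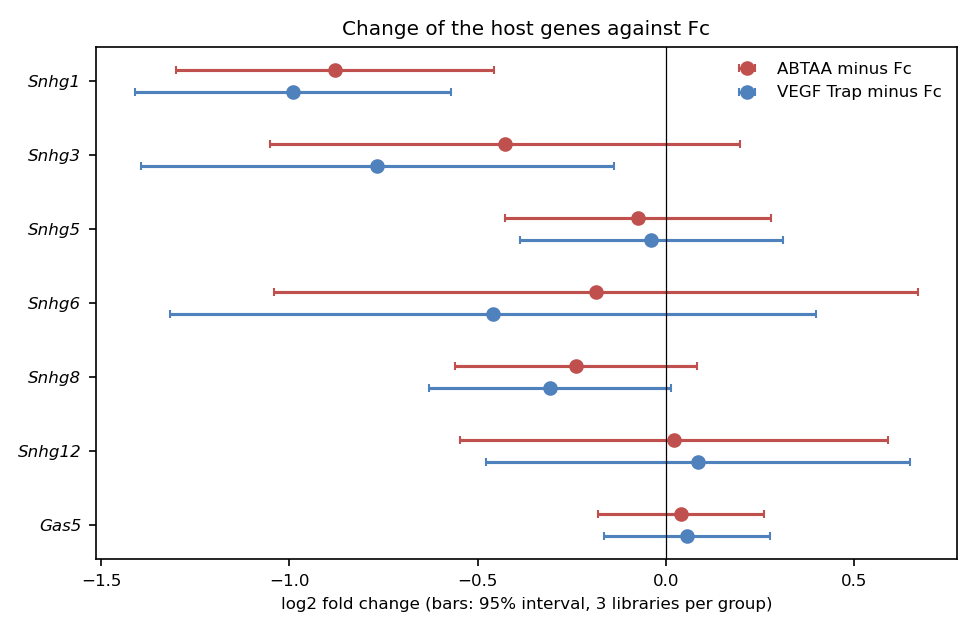
Log2 fold change of each host gene for ABTAA over Fc (red) and VEGF Trap over Fc (blue); points are edgeR estimates and bars their 95% intervals, with 3 libraries per group. Snhg1 lies at -0.88 and -0.99 with intervals below 0, and Gas5 at 0.04 and 0.06 with the narrowest intervals of the 7.

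Against Fc the 7 log2 fold changes ran from -0.88 to 0.04 for ABTAA and from -0.99 to 0.08 for VEGF Trap. The log2 fold change was below 0 for 5 of 7 in the ABTAA comparison, against 50.4% of all genes, and for 5 of 7 in the VEGF Trap comparison, against 49.9%. The median was -0.19 for ABTAA and -0.31 for VEGF Trap, where the median over all tested genes was -0.0029 in the ABTAA and 0.0010 in the VEGF Trap comparison. Without Fc library 1 the medians were 0.0019 and -0.035, and without ABTAA library 2 the ABTAA median was -0.32. The summed level of the 7 was 287, 298 and 303 CPM in ABTAA, 291, 274 and 318 CPM in VEGF Trap and 319.9, 292 and 321 CPM in Fc libraries. These sums overlapped, and Gas5 made up 64.5% to 70.3% of host gene counts in ABTAA, 66.6% to 72.9% in VEGF Trap and 61.3% to 64.0% in Fc libraries.

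ABTAA and VEGF Trap were also compared with each other, the contrast the study's title names. Of the 7 host genes 0 were called, and 0 separated the groups without overlap, where 4.74% of all genes did with ABTAA lower and 5.14% with ABTAA higher. edgeR called 0% of all tested genes, and 711 genes (5.06%) had an unadjusted p under 0.05, while DESeq2 called 1 gene and limma-voom 0. The log2 differences, ABTAA over VEGF Trap, were 0.11 for Snhg1 (-0.32 to 0.55), 0.34 for Snhg3 (-0.31 to 0.98), -0.04 for Snhg5 (-0.39 to 0.32) and 0.27 for Snhg6 (-0.60 to 1.15). For Snhg8 the value was 0.07 (-0.26 to 0.39), for Snhg12 -0.06 (-0.64 to 0.51) and for Gas5 -0.02 (-0.24 to 0.20). Each interval includes 0, which does not show that the treatments act alike.

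Across the 9 libraries the host genes did not vary as 1 group. Pearson's r of the log2 level of a gene with the mean of the other 6 was 0.57 for Snhg1, 0.25 for Snhg3, 0.62 for Snhg5, 0.24 for Snhg6, 0.64 for Snhg8, 0.25 for Snhg12 and -0.11 for Gas5. Among pairs, r was 0.84 for Snhg1 with Snhg8 and 0.80 for Snhg12 with Gas5, while Gas5 with Snhg3 gave -0.52. These are descriptions over 9 points that share libraries, their scaling and the treatment groups. The 5 genes with a level most like the standardised mean of the 7, among 8476 genes with at least 10 CPM on average, were Dctpp1 (r = 0.93), Seh1l (0.90), Isoc2a (0.87), Spcs3 (0.87) and Mob3a (0.86).

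Other genes that host snoRNAs were taken from lists. None of the 14 other noncoding hosts was called against Fc in either comparison by edgeR. Unadjusted p was under 0.05 for 2 in the ABTAA comparison, against 16.9% of all genes, and for 1 in the VEGF Trap comparison, against 15.4%. DESeq2 called 1 and 1 of the 14 and limma-voom 1 and 0. Over all 14054 tested genes DESeq2 called 750 and 671 and limma-voom 411 and 242. The median log2 fold change was 0.14 for ABTAA, with 4 of 14 below 0, and -0.11 for VEGF Trap, with 10 of 14 below 0. Zfas1, an antisense host of 3 snoRNAs at chr2:167062934-167065862 on the plus strand, came closest to the threshold and is singled out after its values were seen. It had 90.8, 77.2 and 105 CPM in ABTAA, 100.5, 91.2 and 91.8 CPM in VEGF Trap and 145, 125 and 126 CPM in Fc libraries. All treated libraries lay below all Fc libraries, with a log2 fold change of -0.53 ± 0.13 for ABTAA (adjusted p = 0.0525, edgeR) and -0.48 ± 0.13 for VEGF Trap (adjusted p = 0.0741). Zfas1 overlaps exons of Znfx1 on the other strand, and the strand setting of the counting is not given in the sources used here.

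Among 39 protein-coding hosts edgeR called 1 lower with ABTAA, against 0.555% of all genes, and 0 with VEGF Trap, against 0.512%. The list leaves out Nop58, a protein-coding host that was called lower in both comparisons and is described with the snoRNP genes. In the ABTAA comparison DESeq2 called 7 of the 39 and limma-voom 5, where they called 750 and 411 of all 14054 genes. An unadjusted p under 0.05 was seen for 13 of the 39, against 16.9% of all genes. The list was chosen with earlier results of these data known, so nothing is read from these counts. The gene of this list called by edgeR was Rpl21, a protein of the large ribosomal subunit, at chr5:146832890-146837032. It had 27.5, 32.2 and 29.3 CPM in ABTAA, 35.0, 36.7 and 30.8 CPM in VEGF Trap and 44.3, 47.4 and 46.0 CPM in Fc libraries. The ABTAA and Fc libraries did not overlap, with a log2 fold change of -0.63 ± 0.13 (adjusted p = 0.037, edgeR). The last 200 bases of Rpl21 match 60 other annotated genes, so its count is uncertain, and leaving out any 1 ABTAA or Fc library ended the call. In the VEGF Trap comparison edgeR called 0 of 39, and 9 had an unadjusted p under 0.05, against 15.4% of all genes. DESeq2 called 4 of the 39 and limma-voom 0, where they called 671 and 242 of all genes. The median log2 fold change was -0.15 for ABTAA, with 28 of 39 below 0, against 50.4% of all genes. For VEGF Trap it was -0.14, with 25 of 39 below 0, against 49.9%.

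Among 19 genes for snoRNP proteins and their assembly, Nop58 fell with both treatments and was the only one called by edgeR. Called lower were 1 of 19 in each comparison, against 0.555% of all genes for ABTAA and 0.512% for VEGF Trap. In the ABTAA comparison 6 of the 19 had an unadjusted p under 0.05, against 16.9% of all genes, and DESeq2 and limma-voom called 1 each. In the VEGF Trap comparison 2 had an unadjusted p under 0.05, against 15.4% of all genes, DESeq2 called 2 and limma-voom 1. Nop58 is a core protein of box C/D particles and itself hosts 4 annotated snoRNAs (chr1:59684971-59719044, plus strand). It had 31.3, 25.3 and 24.4 CPM in ABTAA, 33.8, 24.1 and 27.3 CPM in VEGF Trap and 50.3, 49.4 and 45.7 CPM in Fc libraries. The treated and Fc libraries were far apart, and log2 fold changes were -0.84 ± 0.15 for ABTAA (adjusted p = 0.0235, edgeR) and -0.77 ± 0.15 for VEGF Trap (adjusted p = 0.0323). Leaving out any 1 Fc library ended both calls, as did ABTAA library 2 or 3 for ABTAA and VEGF Trap library 2 or 3 for VEGF Trap. The partners of Nop58 in the particle were not called. For ABTAA they had log2 fold changes of -0.16 (Nop56), 0.18 (the methyltransferase Fbl) and 0.02 (Snu13), and for VEGF Trap -0.24, -0.05 and -0.23. The list median was 0.02 for ABTAA and -0.17 for VEGF Trap.

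**Figure D4:**
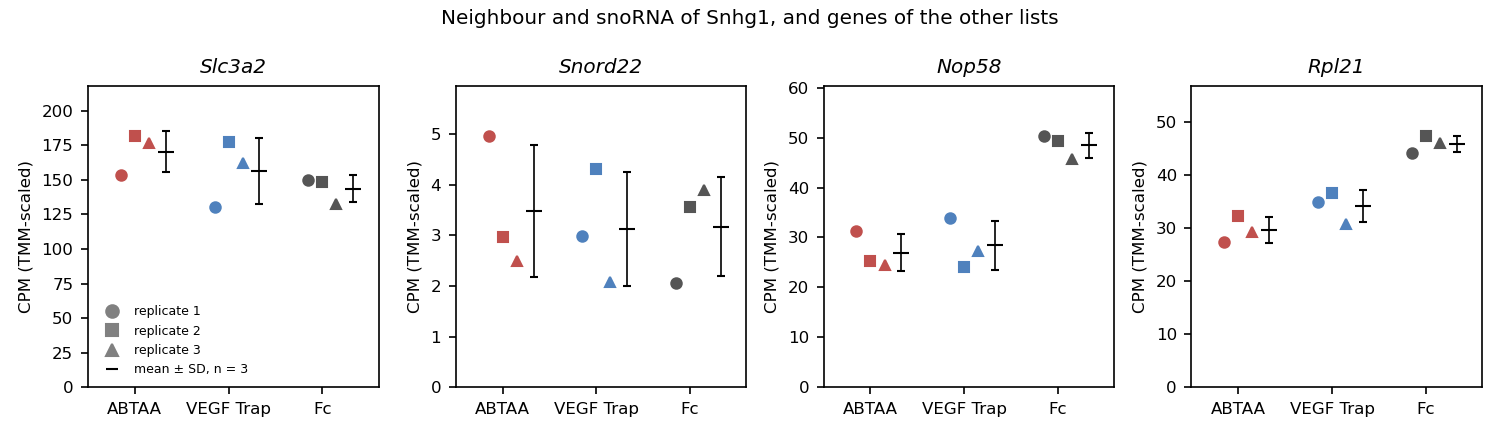
Level in CPM by library of Slc3a2, Snord22, Nop58 and Rpl21, in ABTAA, VEGF Trap and Fc groups, with the mean and SD (n = 3) and an axis from 0 in each panel. Nop58 averaged 27.0 CPM in ABTAA and 28.4 CPM in VEGF Trap, against 48.4 CPM in Fc libraries.

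Of 5 stress transcripts known to be degraded by nonsense-mediated decay, such as Atf4 and Gadd45b, edgeR called 0 in both comparisons. An unadjusted p under 0.05 was seen for 0 and 1, against 16.9% and 15.4% of all genes, and DESeq2 and limma-voom called 0. A list of genes for the decay machinery itself was also fitted and is not described here, so these 5 do not stand for the pathway. Of 22 other TOP mRNAs, which encode translation factors and similar proteins, edgeR called 0 in both. An unadjusted p under 0.05 was seen for 5 and 5, against 16.9% and 15.4% of all genes. DESeq2 called 3 and 2 and limma-voom 0 and 1. Their median log2 fold changes were -0.03 for ABTAA and 0.01 for VEGF Trap. Some genes stand in more than 1 list.

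**Figure D5:**
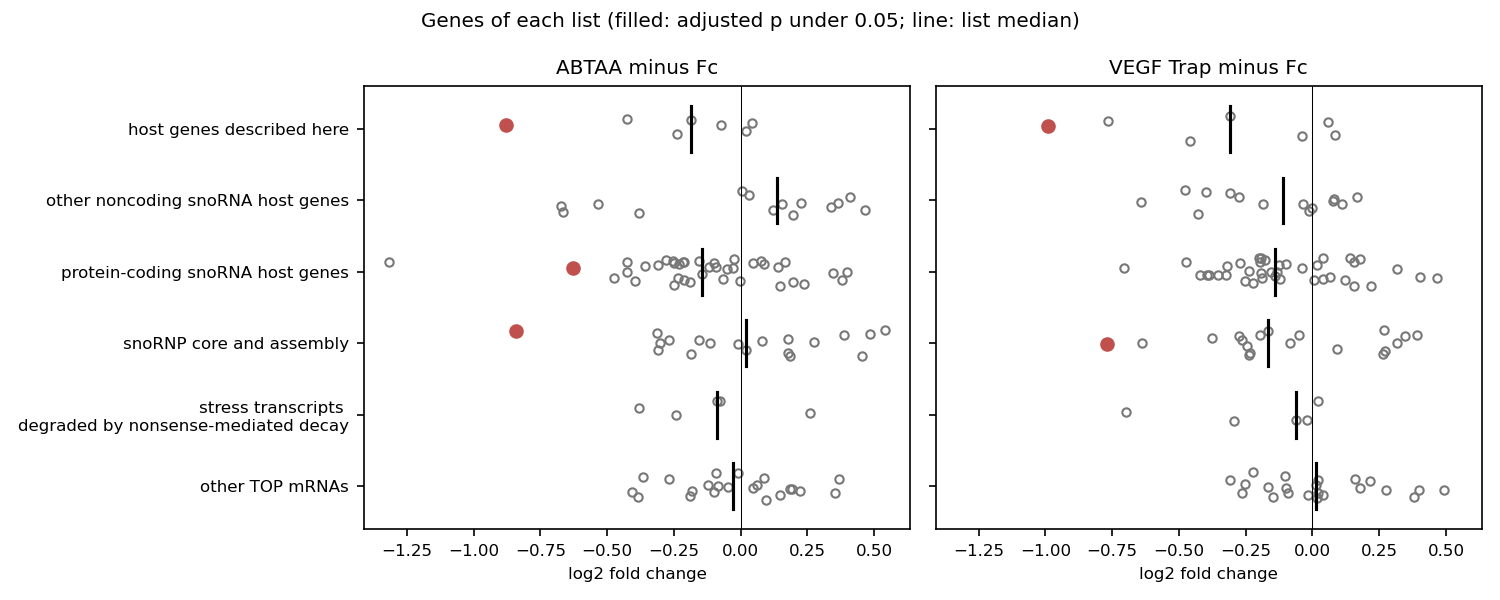
Log2 fold changes of the genes of 6 lists in 2 contrasts, ABTAA over Fc and VEGF Trap over Fc, with 1 point per gene, filled where the adjusted p was under 0.05, and a vertical line at the list median. Medians of the host genes described here lie at -0.19 and -0.31 and those of the other lists between -0.17 and 0.14.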

How the data were processed

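As deposited, each library's table gives raw counts of reads by gene symbol, per the file headers. Bowtie2, edgeR and the mm10 build are named in the submitters' processing notes. Which versions, annotation, counter and strand setting were used is not given in the sources used here. Counts of 14054 genes that passed filterByExpr were scaled by TMM and fitted with edgeR 4.0.16 in R 4.3.3 over all 9 libraries, with the quasi-likelihood test, 6 residual degrees of freedom and Benjamini-Hochberg adjustment. A call is an adjusted p under 0.05. CPM are counts per 1000000 of TMM-scaled totals. DESeq2 1.42.0 and limma 3.58.1 (voom with quality weights, called limma-voom here) were alternatives. Others were other scaling, filters, a GC correction, a replicate block and each library left out.

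The members and lists were chosen with earlier results of these data known. Named genes were the members, list genes called in any contrast (up to 4 per list), genes that overlap a member or start within 5 kb of it, encoded snoRNAs with counts, and the 5 genes most like the members. Of 24421 symbols 23376 matched GENCODE release 21 directly and 677 by an older symbol. Counts that share a divisor above 1 were found for 2058 of the 14167 genes detected in all 9 libraries (14.5%), but for no member. Replicates of 1 group differed by more than counting error (chi-square per degree of freedom 8.51 to 20.4). Deviations of same-numbered libraries correlated at 0.01 to 0.11, all positive and above 0.1 in 2 of 9 pairs. Differently numbered libraries gave -0.09 to 0.04. Erythrocyte markers were lowest in library 3 of each group (ABTAA 291, VEGF Trap 299 and Fc 324 CPM). What same-numbered libraries share was not tested. The main fit did not treat numbers as pairs, and the replicate block called more genes against Fc (334 and 300, against 197 and 144). Transcript ends were compared with other genes over 200 bases (a match is at least 100 bases at 95% identity). The fit was also run on simulated data, and the outcome is not given here. One gene is not reported here.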

Additional observations from a re-analysis of the deposited data

How the results depend on the processing

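The count of genes called for ABTAA against Fc was 750 with DESeq2, 411 with limma-voom, 684 with no filter, 301 with the compared groups only and 77 with the GC correction, where it was 197. For VEGF Trap against Fc it was 671 with DESeq2, 242 with limma-voom, 616 with no filter, 221 with library totals and 249 with shared divisors removed, where it was 144. For ABTAA against VEGF Trap it was 1 with DESeq2 and 30 with no filter. With the replicate block the counts were 334, 300 and 1. The GC correction left 0 members called in both comparisons with Fc. Leaving out 1 library gave 0 to 373, 7 to 144 and 0 to 0 genes, and 0 to 1 members in each comparison with Fc. The cause was not tested. With library totals the calls split into 66 higher and 106 lower for ABTAA and 39 and 182 for VEGF Trap, against 119 and 78 and 72 and 72 with TMM, and the median of all genes was -0.05 and -0.08. The member medians ran from -0.32 to 0.0019 for ABTAA and from -0.40 to -0.035 for VEGF Trap against Fc, and from -0.03 to 0.23 for ABTAA against VEGF Trap, when 1 library was left out. Snhg1 stayed below 0 in 19 of 19 alternatives in both comparisons, from -0.97 to -0.75 and from -1.11 to -0.83, and was called in 11 and 12. Counts of 18 to 129 for Snhg6 and similar counts for Snhg3 and Snhg12 limit what can be seen of those genes.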
